A study of Mus musculus with 18 samples.

Results

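The glucocorticoid receptor, the enzyme that activates its ligand inside cells, and 8 genes known to respond to the hormone were followed in the ventricular myocardium of leptin-deficient mice. The 10 genes were Nr3c1 (the receptor), Hsd11b1, Fkbp5, Tsc22d3, Sult1a1, Errfi1, Zbtb16, Sgk1, Mt1 and Mt2. They were chosen by gene symbol in the platform annotation, and all 10 were found, with 24 of the 45101 probe sets and 10 of the 18193 genes on the array. A probe set is a group of short array probes for 1 transcript, and each gene was read from its probe set with the highest mean signal. Sult1a1 encodes a phenol sulfotransferase, and its place among hormone-responsive genes rests on induction described in rodent liver.

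RNA was measured with single-colour Affymetrix arrays in 18 hearts. Of these, 14 came from mice homozygous for the ob mutation (ob/ob), which make no functional leptin from birth in any tissue, and 4 from wild type C57Bl/6J mice. All ob/ob mice were on the C57Bl/6J background, ate freely until an age of 6 months and then entered a treatment of 1 month. The leptin group (n = 5) received recombinant mouse leptin from an osmotic mini-pump, the calorie restricted group (n = 5) stayed without leptin and was given food to match the intake of the leptin group, and the ad libitum group (n = 4) stayed without leptin and without a limit on food. The wild type controls (n = 4) carried no ob allele and were 6 to 8 months old, and the labels give no treatment for them. All mice were killed between 7 and 8 AM, so each heart shows 1 narrow window of the daily hormone cycle.

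Glucocorticoids, corticosterone in the mouse, enter cells and bind a receptor that waits in the cytoplasm on a scaffold of heat shock proteins. The bound receptor moves to the nucleus and raises or lowers transcription of its targets, several of which feed back on the hormone. In the heart the receptor is present in cardiomyocytes and in non-muscle cells. In laboratory rodents circulating corticosterone is known to be high in ob/ob mice and to rise with food restriction. Hormone levels were not measured in the data used here.

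The arrays had been scaled to the same mean after trimming, but their medians still differed. Median signal ranged from 22.3 to 31.8 across the 18 arrays, and 16.7% to 22.7% of probe sets lay at or below 5.13, the small constant added before taking log2. All 5 genes listed as ventricular markers, Myl2, Myl3, Myh6, Tnni3 and Actc1, were well detected. Their summed signal was 31010 to 43190 in leptin hearts, 36850 to 47940 in calorie restricted hearts, 35220 to 41250 in ad libitum hearts and 31940 to 34760 in wild type hearts. Whether this sum separates ventricular from atrial muscle was not tested. Calorie restricted replicates 2 and 3 stood apart in atrial marker genes, with a mean log2 signal of 10.3 and 10.5 against 4.92 to 7.94 on the other arrays. Leptin replicate 5 stood apart within the 10 genes: it was the lowest leptin array for Hsd11b1, Fkbp5, Tsc22d3, Sult1a1, Zbtb16, Mt1 and Mt2 and the highest for Nr3c1 and Errfi1. In whole tissue, fewer cells of a type and less RNA per cell cannot be told apart.

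All 10 genes passed the filter on low signal that 10916 genes passed, and they were tested with limma in 1 fit over the 18 arrays. A gene was called when its p, adjusted by the Benjamini-Hochberg method over all genes tested, was under 0.05. The 6 comparisons share arrays, so a call in one is not independent of a call in another. Leptin over calorie restriction called 4 of the 10 genes, 1 higher and 3 lower, beside 17.9% of all genes tested (10.4% higher, 7.5% lower). Calorie restriction over wild type called 5, 4 higher and 1 lower, beside 14.9% (6.71% higher, 8.2% lower). Calorie restriction over ad libitum called 3, all higher, beside 7.95% (3.53% higher, 4.42% lower). Leptin over ad libitum called 1, higher, beside 1.04% (0.632% higher, 0.412% lower). Ad libitum over wild type called 0, beside 0.376%, and leptin over wild type called 0, beside 0.0183%. At an unadjusted p under 0.05, limma passed 6 of the 10 genes for ad libitum over wild type and 2 of 10 for leptin over wild type, beside 11.5% and 11.1% of all genes tested. At the same threshold it passed 5 of 10 for leptin over calorie restriction and 5 of 10 for calorie restriction over wild type, beside 31.2% and 28.3%. For leptin over ad libitum it passed 7 of 10, beside 1656 of the 10916 genes tested. For calorie restriction over ad libitum it passed 6 of 10, beside 2401 of the 10916.

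Arrays that did not overlap between groups were counted as well. The arrays did not overlap for 4 of the 10 genes in leptin over calorie restriction (12.8% of all genes tested), 5 in calorie restriction over wild type (15.7%) and 2 in calorie restriction over ad libitum (10.8%). The counts were 3 in leptin over ad libitum (5.93%), 4 in ad libitum over wild type (7.96%) and 0 in leptin over wild type (3.58%). Of the 13 calls, 9 held under every alternative tried and when any single array of the pair of groups was dropped, and these were the 4 calls of leptin over calorie restriction and the 5 of calorie restriction over wild type. The other 4 calls, all against the ad libitum group, were each lost under some setting and are given with it below.

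**Figure D1:**
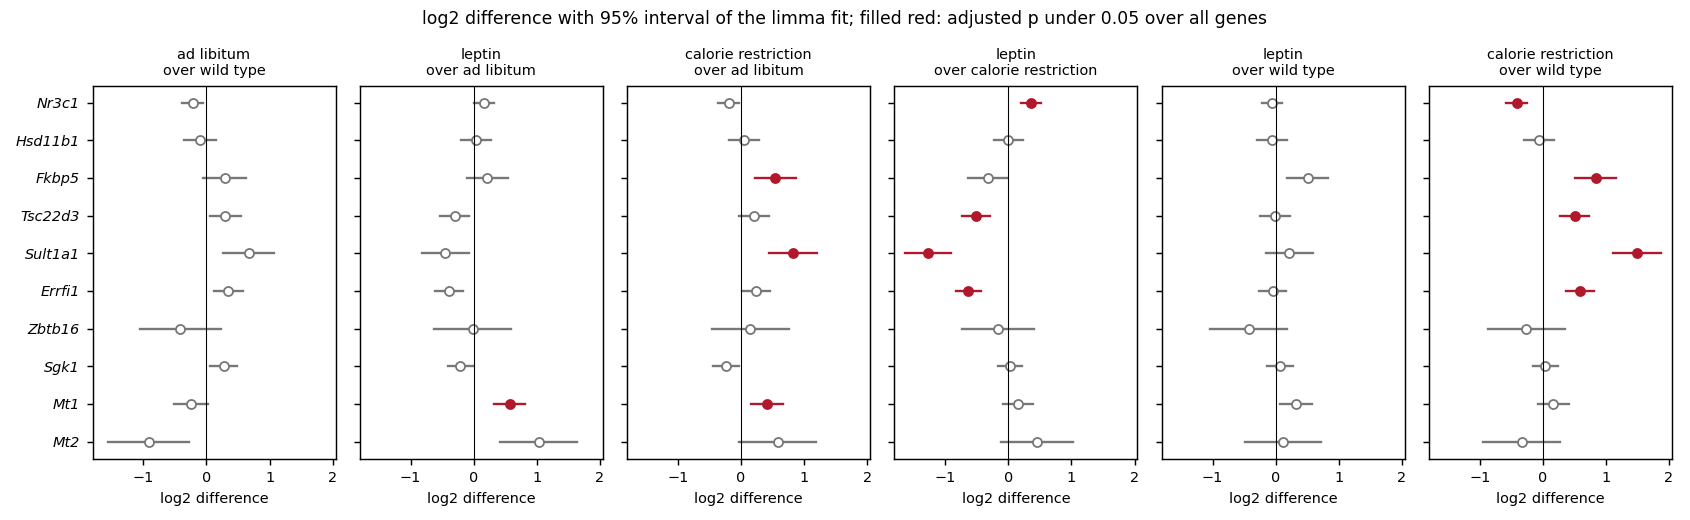
Log2 differences of the 10 genes (down the page) in the 6 comparisons (1 panel each, axis in log2 units), with the 95% interval of the limma fit. Filled red points have an adjusted p under 0.05 over all genes tested. The calls lie in the panels that involve calorie restriction, apart from Mt1 in leptin over ad libitum.

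Nr3c1, the receptor itself, was lower in calorie restricted hearts than in leptin and wild type hearts. Its signal was 367, 377, 406, 371 and 446 in leptin hearts, and 291, 298, 302, 300 and 332 in calorie restricted hearts. It was 365, 314, 351 and 372 in ad libitum hearts, and 424, 380, 405 and 426 in wild type hearts. All 5 leptin arrays and all 4 wild type arrays lay above all 5 calorie restricted arrays, while the ad libitum arrays reached into both the leptin and the calorie restricted ranges. Nr3c1 rose in leptin over calorie restricted hearts by a log2 difference of 0.36 ± 0.07 (SE; limma adjusted p = 0.0025). It fell by 0.42 ± 0.08 in calorie restriction over wild type (adjusted p = 0.00154), which is a signal 0.749 times that of wild type. Against the ad libitum group the log2 difference was 0.16 ± 0.08 in leptin hearts (adjusted p = 0.326) and -0.20 ± 0.08 in calorie restricted hearts (adjusted p = 0.132). Ad libitum over wild type was -0.22 ± 0.08 (adjusted p = 0.281), with all 4 ad libitum arrays below all 4 wild type arrays.

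The mean signals of Nr3c1 were in the order wild type (409 ± 21.6; SD, n = 4), leptin (393 ± 33.1, n = 5), ad libitum (351 ± 25.7, n = 4) and calorie restricted (305 ± 15.6, n = 5), and no neighbours in that order differed past the test. The other 5 probe sets of Nr3c1 gave a mixed picture. One, 1457635_s_at, averaged 138 in leptin, 117 in calorie restricted, 136 in ad libitum and 182 in wild type hearts. It fell by 0.64 in calorie restriction over wild type (adjusted p = 0.0135 with every probe set tested), but leptin over calorie restriction was 0.23 (adjusted p = 0.339). The probe set 1421867_at averaged 227 in leptin, 212 in calorie restricted, 215 in ad libitum and 232 in wild type hearts, with log2 differences of 0.10 (adjusted p = 0.507) for leptin over calorie restriction and -0.13 (adjusted p = 0.435) for calorie restriction over wild type. The probe set 1421866_at averaged 67.0 in leptin, 72.6 in calorie restricted, 80.8 in ad libitum and 68.8 in wild type hearts. Its differences had the opposite sign, -0.09 for leptin over calorie restriction (adjusted p = 0.774) and 0.07 for calorie restriction over wild type (adjusted p = 0.85). The last 2 were dim and under the filter: 1453860_s_at had its highest mean in leptin hearts and averaged 11.9 in calorie restricted, 16.7 in ad libitum and 14.3 in wild type hearts, and 1431378_at averaged 6.57 in leptin, 17.4 in calorie restricted, 13.2 in ad libitum and 11.4 in wild type hearts. Both the size and the sign of the Nr3c1 difference thus depended on the probe set read.

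Hsd11b1 encodes the type 1 hydroxysteroid dehydrogenase, which regenerates active glucocorticoid from its inert form inside cells. Its signal was 326, 330, 233, 277 and 228 in leptin hearts, and 258, 315, 274, 271 and 263 in calorie restricted hearts. It was 292, 233, 283 and 265 in ad libitum hearts, and 270, 270, 298 and 313 in wild type hearts. The 4 groups overlapped in every comparison. The log2 difference was 0.04 ± 0.11 for leptin over ad libitum, with a 95% interval of -0.20 to 0.28 (limma adjusted p = 0.902), and the same interval held for calorie restriction over ad libitum (adjusted p = 0.88). For leptin over calorie restriction the interval was -0.22 to 0.23 (adjusted p = 1.0).

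**Figure D2:**
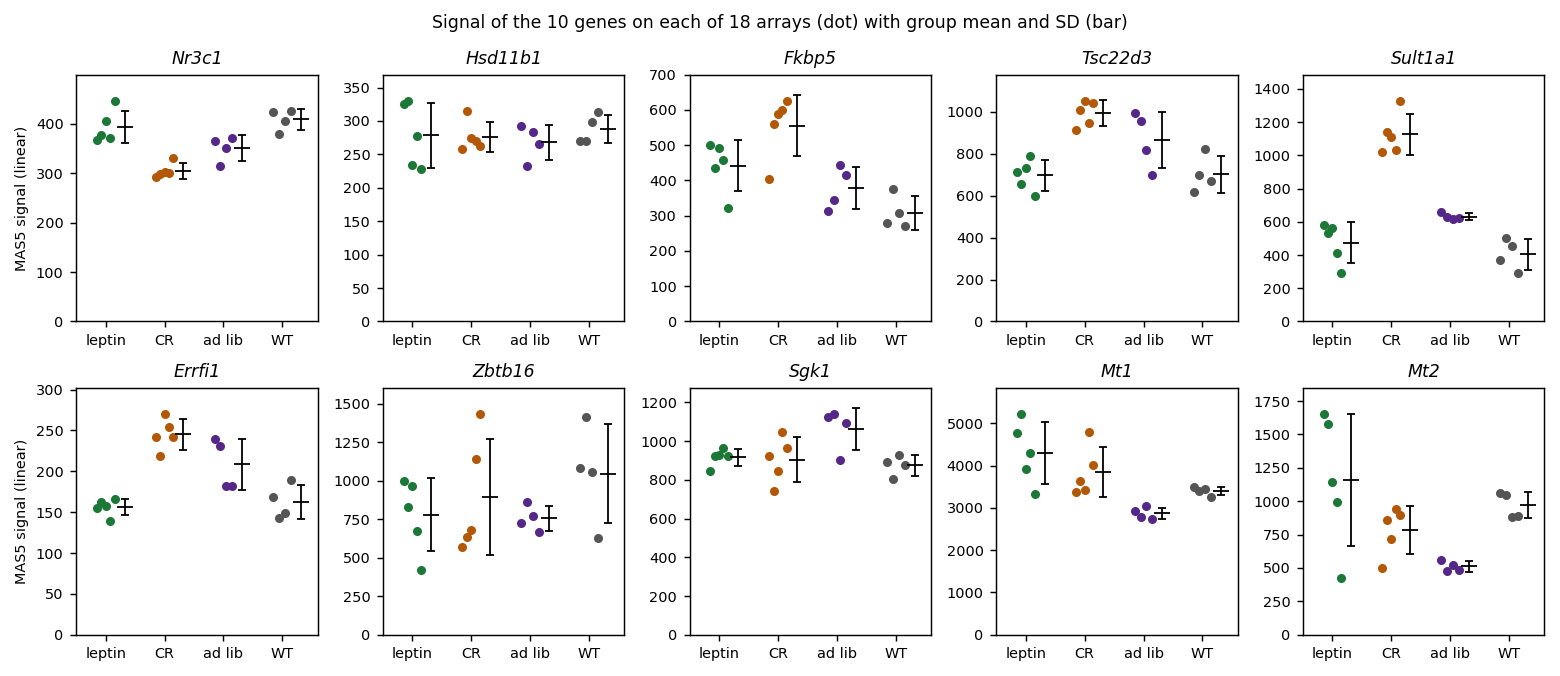
MAS5 signal on each array (linear axis from 0) of the 10 genes, 1 panel per gene, for leptin, calorie restricted (CR), ad libitum (ad lib) and wild type (WT) hearts. Points are arrays, and the bars beside them give the group mean and SD; Sult1a1 shows calorie restricted arrays of 1021 to 1327 above every other array, and Hsd11b1 shows 4 groups that overlap.

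Sult1a1, a cytosolic enzyme that adds sulfate to phenolic compounds, had the largest differences of the 10 genes between leptin and calorie restricted hearts and between calorie restricted and wild type hearts. Its signal was 579, 533, 560, 415 and 289 in leptin hearts, and 1021, 1138, 1112, 1030 and 1327 in calorie restricted hearts. It was 660, 628, 615 and 621 in ad libitum hearts, and 368, 501, 455 and 291 in wild type hearts. Every calorie restricted array exceeded every array of the other groups, and the 4 ad libitum arrays lay in a narrow band above all leptin and all wild type arrays. Sult1a1 fell by 1.27 ± 0.17 on the log2 scale in leptin over calorie restriction, a signal 0.414 times as high (limma adjusted p = 9.17e-05). It rose by 1.49 ± 0.18 in calorie restriction over wild type, or 2.81-fold (adjusted p = 4.96e-05), and by 0.82 ± 0.18 in calorie restriction over ad libitum, or 1.77-fold (adjusted p = 0.00896).

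The mean of Sult1a1 was highest in calorie restricted hearts (1126 ± 124; SD, n = 5), followed by ad libitum (631 ± 20.3, n = 4), leptin (475 ± 122, n = 5) and wild type hearts (404 ± 93.2, n = 4). Leptin over ad libitum was -0.45 ± 0.18 (adjusted p = 0.237), ad libitum over wild type was 0.67 ± 0.19 (adjusted p = 0.13), and leptin over wild type was 0.22 ± 0.18 (adjusted p = 0.671), none of which passed. With the atrial marker signal of each array as a covariate, calorie restriction over ad libitum was 0.73 (adjusted p = 0.072) and no longer passed. Sult1a1 was the called gene with the clearest contrast, so the 250 bases before the start for which RefSeq's table gives a window are printed. That start lies 14025 bases inside the annotated locus, counted from its outermost start, so longer transcript models begin upstream of it. The sequence is RefSeq's, build GRCm38.p6, minus strand at chr7:126676419-126676668, written 5′ to 3′, and capitals mark TGTTCT or its reverse complement AGAACA, a single arm of the palindrome that the receptor binds:
Sult1a1: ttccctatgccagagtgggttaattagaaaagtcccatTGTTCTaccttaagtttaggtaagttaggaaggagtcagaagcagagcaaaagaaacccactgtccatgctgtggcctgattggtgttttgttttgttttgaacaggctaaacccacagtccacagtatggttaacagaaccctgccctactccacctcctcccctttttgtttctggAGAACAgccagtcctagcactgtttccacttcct
The window held 2 such arms, on opposite strands, whose first bases lie 212 and 34 bases before the start. Of 32851 RefSeq promoter windows of this length, 16.1% held at least 1 arm on either strand and 1.81% at least 2. A match of letters is a description of the sequence and not a binding site.

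Tsc22d3 (GILZ), a leucine zipper protein that mediates part of the anti-inflammatory action of glucocorticoids, was higher in calorie restricted hearts than in leptin and wild type hearts. Its signal was 715, 655, 734, 791 and 598 in leptin hearts, and 914, 1011, 1052, 946 and 1044 in calorie restricted hearts. It was 995, 954, 818 and 701 in ad libitum hearts, and 620, 697, 825 and 669 in wild type hearts. The calorie restricted arrays lay above all leptin and all wild type arrays, and the ad libitum arrays spread across both ranges. Tsc22d3 fell by 0.51 ± 0.10 in leptin over calorie restriction (limma adjusted p = 0.00286) and rose by 0.50 ± 0.11 in calorie restriction over wild type (adjusted p = 0.00538). Calorie restriction over ad libitum was 0.21 ± 0.11 (adjusted p = 0.296), and leptin over wild type was -0.01 ± 0.11, with a 95% interval of -0.24 to 0.23 (adjusted p = 0.988).

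A further probe set of Tsc22d3, 1425281_a_at, averaged 516 in leptin, 792 in calorie restricted, 580 in ad libitum and 494 in wild type hearts. With every probe set tested, it fell by 0.62 in leptin over calorie restriction (adjusted p = 5.57e-04), and it rose by 0.68 in calorie restriction over wild type (adjusted p = 5.39e-04) and by 0.46 in calorie restriction over ad libitum (adjusted p = 0.0153). The probe set 1425557_x_at averaged 170 in leptin, 175 in calorie restricted, 177 in ad libitum and 189 in wild type hearts, with a log2 difference of -0.05 for leptin over calorie restriction. The dim probe set 1444365_at, under the filter, averaged 24.0 in leptin, 35.2 in calorie restricted, 37.2 in ad libitum and 35.0 in wild type hearts. The suffix x_at marks a set whose probes can match several transcripts.

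Errfi1 (Mig6), an adaptor protein that inhibits the epidermal growth factor receptor, ran in the same direction. Its signal was 156, 163, 158, 140 and 166 in leptin hearts, and 242, 219, 270, 254 and 242 in calorie restricted hearts. It was 240, 231, 182 and 182 in ad libitum hearts, and 168, 143, 149 and 189 in wild type hearts. The calorie restricted arrays lay above all leptin and wild type arrays, and the ad libitum arrays lay above all leptin arrays. Errfi1 fell by 0.63 ± 0.10 in leptin over calorie restriction (limma adjusted p = 3.02e-04) and rose by 0.58 ± 0.10 in calorie restriction over wild type (adjusted p = 0.00117). Leptin over ad libitum was -0.40 ± 0.10 (adjusted p = 0.0746), and calorie restriction over ad libitum was 0.24 ± 0.10 (adjusted p = 0.186). In its other probe set, 1419816_s_at, the log2 difference was -0.44 for leptin over calorie restriction (adjusted p = 0.0611 with every probe set tested) and 0.49 for calorie restriction over wild type (adjusted p = 0.0573). Calorie restriction over ad libitum was -0.06 in that probe set (adjusted p = 0.892). It averaged 88.2 in leptin, 119 in calorie restricted, 124 in ad libitum and 83.9 in wild type hearts, so which group was highest depended on the probe set.

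Fkbp5 (FKBP51) is a co-chaperone that lowers the receptor's affinity for hormone and closes a feedback loop inside the cell. Its signal was 500, 435, 492, 459 and 321 in leptin hearts, and 405, 559, 589, 600 and 625 in calorie restricted hearts. It was 314, 344, 444 and 415 in ad libitum hearts, and 279, 376, 308 and 270 in wild type hearts. All calorie restricted arrays lay above all wild type arrays, but calorie restricted replicate 1 lay within the leptin and ad libitum ranges. Fkbp5 rose by 0.84 ± 0.15 in calorie restriction over wild type, or 1.79-fold (limma adjusted p = 0.00152), and by 0.54 ± 0.15 in calorie restriction over ad libitum (adjusted p = 0.0379). The second of these calls was kept in 2 of the 9 fits that left out 1 array of either group and in 5 of 9 alternatives, with an adjusted p of up to 0.154. It was lost without any of ad libitum replicates 1, 2 and 4 and calorie restricted replicates 2, 3, 4 and 5.

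In leptin over calorie restriction Fkbp5 gave -0.33 ± 0.14 (adjusted p = 0.13). Without calorie restricted replicate 1 the value was -0.44 (adjusted p = 0.037) and passed. Leptin over wild type was 0.51 ± 0.15 (adjusted p = 0.281), with a 95% interval of 0.18 to 0.83, so the mean of leptin hearts stayed above that of wild type hearts for this gene without passing the test over all genes. The mean signals were 442 ± 72.3 in leptin, 556 ± 87.6 in calorie restricted, 379 ± 60.5 in ad libitum and 308 ± 48.3 in wild type hearts (SD, n = 5, 5, 4 and 4). A further probe set, 1448231_at, averaged 213 in leptin, 277 in calorie restricted, 204 in ad libitum and 149 in wild type hearts. It rose by 0.90 in calorie restriction over wild type (adjusted p = 0.00212 with every probe set tested), while calorie restriction over ad libitum was 0.44 (adjusted p = 0.146).

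Sgk1, a kinase that regulates ion channels and is induced by corticosteroids, and Zbtb16 (PLZF), a zinc finger transcription factor, had no call in any comparison. The Sgk1 signal was 846, 921, 928, 963 and 921 in leptin hearts, and 924, 744, 845, 1047 and 964 in calorie restricted hearts. It was 1123, 1139, 904 and 1093 in ad libitum hearts, and 895, 803, 929 and 877 in wild type hearts. The highest mean was in ad libitum hearts, where 3 of 4 arrays lay above every other array. Log2 differences were -0.21 ± 0.10 for leptin over ad libitum (limma adjusted p = 0.304), -0.24 ± 0.10 for calorie restriction over ad libitum (adjusted p = 0.15) and 0.28 ± 0.10 for ad libitum over wild type (adjusted p = 0.28). Calorie restriction over wild type was 0.04 ± 0.10, with a 95% interval of -0.16 to 0.24.

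Sgk1 is shown because 1 of its 6 annotated starts is preceded by a match to the complete receptor element. That start lies 111706 bases inside the annotated locus. The 250 bases are from RefSeq, GRCm38.p6, plus strand at chr10:21993640-21993889, and capitals mark the match to the full palindrome, AGAACA and TGTTCT separated by 3 bases of any kind, which has the same pattern on both strands and contains 2 of the single arms described above:
Sgk1: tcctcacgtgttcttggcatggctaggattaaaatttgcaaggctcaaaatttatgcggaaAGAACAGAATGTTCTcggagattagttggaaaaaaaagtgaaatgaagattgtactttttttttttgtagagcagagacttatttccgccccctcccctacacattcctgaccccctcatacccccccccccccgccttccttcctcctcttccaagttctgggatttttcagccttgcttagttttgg
The first base of the match lies 189 bases before that start. A further single arm, TGTTCT, begins 242 bases before it. Only 3 of the 32851 RefSeq promoter windows (0.00913%) held this complete form. The windows of Sult1a1 (1 start), Fkbp5 (1 start), Errfi1 (2 starts) and Tsc22d3 (3 starts) held no match to the complete form. The Fkbp5 and Errfi1 windows held no single arm either, and of the Tsc22d3 windows only the outermost held 1. A missing match says only that these letters are not in those windows. RefSeq windows were found for 8 of the 10 genes, all but Nr3c1 and Zbtb16.

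Zbtb16 was read from 1419874_x_at, whose suffix marks probes that can match several transcripts. The Zbtb16 signal was 997, 830, 967, 676 and 421 in leptin hearts, and 572, 631, 683, 1142 and 1431 in calorie restricted hearts. It was 722, 860, 771 and 667 in ad libitum hearts, and 1084, 1411, 1056 and 628 in wild type hearts. The arrays within a group differed more than the groups did. Leptin over calorie restriction was -0.16 ± 0.27, with a 95% interval of -0.74 to 0.41 (limma adjusted p = 0.729), and ad libitum over wild type was -0.42 ± 0.31, with an interval of -1.06 to 0.23 (adjusted p = 0.657). The other 2 probe sets of Zbtb16, which averaged 878 and 162 in leptin, 834 and 176 in calorie restricted, 758 and 157 in ad libitum and 931 and 162 in wild type hearts, had 0 calls with every probe set tested and 0 at an unadjusted p under 0.05. Of the 2 intervals given above, that for leptin over calorie restriction holds the Tsc22d3 value of the same comparison, -0.51. That for ad libitum over wild type holds a fall of this size, but not the Tsc22d3 rise of 0.30 there.

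Mt1 and Mt2 encode metallothioneins, small cysteine-rich proteins that bind zinc and copper and are induced both by metals, through the factor MTF1, and by glucocorticoids. They are neighbours on chromosome 8 with 0 annotated genes between them. The Mt2 window is printed because it ends at the outermost start of the gene and holds several matches to the core of the metal response element. It was chosen for these matches, so the shares given below stand beside a selected window. The Mt1 window is not printed, but its count is given below. Its start lies 206 bases inside the annotated locus and most of the window falls within it. The printed windows of Sult1a1 and Sgk1 also lie inside their loci. The Mt2 window is from RefSeq, GRCm38.p6, plus strand, at chr8:94172368-94172617, and capitals mark the element's core, TGCACNC or TGCGCNC, on either strand:
Mt2: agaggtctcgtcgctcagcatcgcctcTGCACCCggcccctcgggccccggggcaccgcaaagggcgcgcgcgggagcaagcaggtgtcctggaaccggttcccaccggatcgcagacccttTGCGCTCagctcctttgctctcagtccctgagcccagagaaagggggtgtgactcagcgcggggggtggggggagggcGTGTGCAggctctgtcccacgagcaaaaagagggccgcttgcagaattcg
The window held 3 cores, with first bases 223 (TGCACCC), 128 (TGCGCTC) and 50 (GTGTGCA, on the opposite strand) bases before the start. Of all 32851 windows, 21.4% held at least 1 core, 5.17% at least 2 and 1.26% at least 3. The Mt1 window held 1 core, TGCACAC, whose first base lies 23 bases before its start. Neither window held a match to the complete or single-arm receptor element.

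Mt1 was higher in both leptin and calorie restricted hearts than in ad libitum hearts. Its signal was 4769, 5217, 3924, 4299 and 3334 in leptin hearts, and 3374, 3630, 3414, 4796 and 4013 in calorie restricted hearts. It was 2917, 2781, 3048 and 2749 in ad libitum hearts, and 3491, 3404, 3446 and 3257 in wild type hearts. The 4 ad libitum arrays were the 4 lowest of all 18. Mt1 rose by 0.57 ± 0.12 in leptin over ad libitum, or 1.48-fold (limma adjusted p = 0.0272), and by 0.41 ± 0.12 in calorie restriction over ad libitum, or 1.33-fold (adjusted p = 0.0433). These 2 calls were close to the threshold: with 1 array of either group left out, the first was kept in 3 of 9 fits and the second in 2 of 9. Under the alternatives they were kept in 6 of 9 and in 2 of 9. The first was lost without any ad libitum array or without leptin replicates 1 or 2, and the second without any ad libitum array or without calorie restricted replicates 2, 4 or 5, with an adjusted p of at most 0.11. Ad libitum over wild type was -0.24 ± 0.13 (adjusted p = 0.481), although all 4 ad libitum arrays lay below all 4 wild type arrays.

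Mt2 had the same low ad libitum arrays but a wider spread among leptin hearts. Its signal was 1651, 1577, 1144, 992 and 426 in leptin hearts, and 500, 857, 718, 944 and 900 in calorie restricted hearts. It was 561, 476, 524 and 484 in ad libitum hearts, and 1062, 1047, 885 and 887 in wild type hearts. Leptin replicate 5, at 426, was the lowest of all 18 arrays, whereas the other 4 leptin arrays were above every ad libitum array. Leptin over ad libitum was 1.03 ± 0.29 (limma adjusted p = 0.0914) with all arrays and 1.35 without leptin replicate 5 (adjusted p = 0.00232). Leptin over calorie restriction was 0.45 ± 0.27 (adjusted p = 0.276) with all arrays and 0.77 without leptin replicate 5 (adjusted p = 0.00804). Ad libitum over wild type was -0.92 ± 0.30 (adjusted p = 0.223), and it passed when only these 2 groups were fitted (adjusted p = 0.0188).

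Relations between the 10 genes were also examined across arrays within groups. Deviations of log2 signal from the group mean were correlated over the 18 arrays for all 45 pairs of the 10 genes, with 100000 permutations within groups. By Pearson's r, 5 pairs passed an adjusted p of 0.05: Mt1 with Mt2, and the pairs of Zbtb16 with Sult1a1, Fkbp5 and Mt2, and Fkbp5 with Sult1a1. For Mt1 with Mt2, r was 0.824 (permutation p = 9.3e-04, adjusted 0.0205) and Spearman's rho was 0.711 (permutation p = 0.00701, adjusted 0.122). Without the 2 arrays farthest from the median of Mt1, r was 0.74 (adjusted p = 0.519). Leptin replicate 5 was among the 2 arrays left out in this way for each of the 5 pairs. By rank correlation, without the 2 farthest arrays, and without leptin replicate 5 alone, 0 of the 45 pairs passed the adjusted threshold. Without leptin replicate 5, r was 0.736 for Mt1 with Mt2 (permutation p = 0.0252, adjusted 0.413) and 0.70 for Sult1a1 with Zbtb16 (permutation p = 0.00589, adjusted 0.265), and it was 0.583, 0.584 and 0.48 for Fkbp5 with Zbtb16, Zbtb16 with Mt2 and Fkbp5 with Sult1a1. The adjusted calls were thus lost without that array, while all 5 values of r stayed positive.

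**Figure D3:**
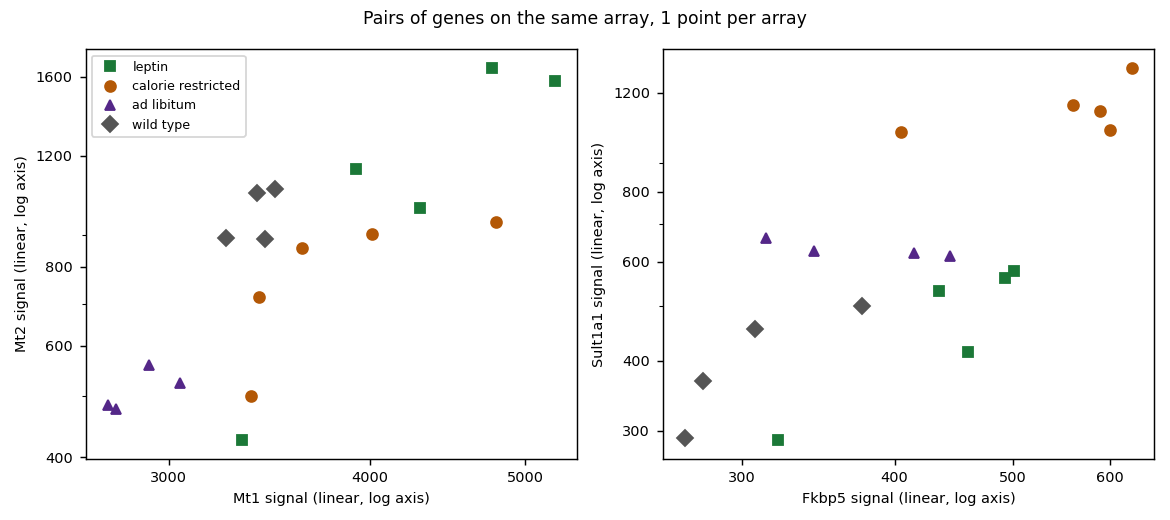
Signal of Mt2 against Mt1 (left) and of Sult1a1 against Fkbp5 (right), both axes linear signal on log scales, 1 point per array. Leptin replicate 5 is the leptin square at the lower left of each panel, at an Mt2 signal of 426 and a Sult1a1 signal of 289.

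Other genes known to be induced by glucocorticoids in some tissue were counted as a wider list of 24, of which 23 were tested. In calorie restriction over wild type 6 rose and 1 fell, and the list's median log2 difference was 0.30, beside 0.00 over all genes tested, and 14.9% of all genes were called. In leptin over calorie restriction 1 rose and 4 fell, a share near the 17.9% of all genes called, with a median of -0.16 beside -0.01. In calorie restriction over ad libitum 4 rose and 0 fell, beside 7.95% of all genes called, with a median of 0.20 beside -0.00. In leptin over ad libitum 0 rose and 2 fell, beside 1.04% of all genes called, with a median of 0.04, and in both leptin over wild type and ad libitum over wild type 0 were called, with medians of -0.08 and 0.11. At an unadjusted p under 0.05, limma passed 2 and 8 of the 23 genes in those last comparisons, beside 11.1% and 11.5% of all genes tested.

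Angptl4, a secreted inhibitor of lipoprotein lipase, averaged 224 ± 83.7 in leptin, 626 ± 140 in calorie restricted, 108 ± 19.0 in ad libitum and 284 ± 114 in wild type hearts (SD, n = 5, 5, 4 and 4). It rose by 2.47 in calorie restriction over ad libitum (limma adjusted p = 7.2e-05). Rgs2, a regulator of G protein signalling, rose by 0.83 in the same comparison (adjusted p = 0.00106), as did Pdk4, the kinase that inhibits pyruvate dehydrogenase, by 0.86 (adjusted p = 0.0229). Angptl4 and Pdk4 are also known targets of fatty acid sensing receptors. The clock gene Per1 rose by 0.81 in calorie restriction over wild type (adjusted p = 0.00884). Pik3r1, a regulatory subunit of PI3 kinase (0.40), Nfkbia, the inhibitor of NF-kappa-B (0.30), Ptgds, a prostaglandin D synthase (0.45), Angptl4 (1.17) and Rgs2 (0.75) rose in that comparison too. Foxo3, a transcription factor of the fasting response, rose by 0.51 in calorie restriction over ad libitum (adjusted p = 0.0312). Anxa1, the anti-inflammatory annexin A1, ran against the list's name and fell by 0.53 in calorie restriction over wild type (adjusted p = 0.016). Ddit4 (REDD1), an inhibitor of mTOR complex signalling, averaged 547 ± 185 in leptin, 1234 ± 461 in calorie restricted, 1622 ± 372 in ad libitum and 737 ± 141 in wild type hearts, and fell by 1.60 in leptin over ad libitum (adjusted p = 0.00579) and by 1.17 in leptin over calorie restriction. Cdkn1a, the cell cycle inhibitor p21, fell by 0.84 in leptin over ad libitum (adjusted p = 0.0426). In leptin over calorie restriction Fam107a fell by 0.87 (adjusted p = 0.0137), Angptl4 fell by 1.53 and Rgs2 fell by 0.53, while Anxa1 rose by 0.43 (adjusted p = 0.0282). Some of these calls were close to the threshold: with 1 array of either group left out, the call for Cdkn1a was kept in 1 of 9 fits, Foxo3 in 2 of 9, Nfkbia in 3 of 9, Pik3r1 in 6 of 9 and Anxa1 (leptin over calorie restriction) in 6 of 10.

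Of 9 chaperones of the receptor listed, 7 were tested. In leptin over calorie restriction 4 of 7 rose, beside 10.4% of all genes, with a list median of 0.27. In calorie restriction over wild type 3 of 7 fell, beside 8.2%, with a list median of -0.22, and in calorie restriction over ad libitum 1 of 7 fell, beside 4.42%, with a list median of -0.22. The other 3 comparisons had 0 calls by limma, with 1, 0 and 0 of 7 at an unadjusted p under 0.05 in ad libitum over wild type, leptin over ad libitum and leptin over wild type, and Dnajb1, Bag1 and St13 were called in no comparison. Hsp90aa1, the inducible HSP90 that holds the receptor ready for hormone, averaged 1349 ± 116 in leptin, 832 ± 92.2 in calorie restricted, 1226 ± 185 in ad libitum and 1538 ± 144 in wild type hearts (SD, n = 5, 5, 4 and 4). It rose by 0.70 in leptin over calorie restriction (limma adjusted p = 2.06e-04), and fell by 0.88 in calorie restriction over wild type and by 0.55 in calorie restriction over ad libitum (adjusted p = 0.00468). Fkbp4 (FKBP52), the co-chaperone that competes with FKBP51 in this complex, rose by 0.27 in leptin over calorie restriction (adjusted p = 0.0328), where Fkbp5 had a negative value. Stip1, which hands clients between HSP70 and HSP90, rose by 0.35 (adjusted p = 0.00903), and Hspa8 rose by 0.25 (adjusted p = 0.0396). With 1 array of either group left out, the call for Fkbp4 was kept in 3 of 10 fits and that for Hspa8 in 2 of 10, and the call for Fkbp4 in calorie restriction over wild type was kept in 0 of 9.

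Of the receptor's co-regulators, 8 of 10 listed were tested, and of genes for corticosteroid synthesis, inactivation, transport and the related mineralocorticoid receptor, 6 of 9 were tested. Neither list had a call in any of the 6 comparisons by limma. The co-regulator Nrip1 (RIP140) had a log2 difference of 0.28 in calorie restriction over ad libitum (adjusted p = 0.0709), and Ncoa1, a coactivator, one of 0.27 in calorie restriction over wild type (adjusted p = 0.0878). Nr3c2, the mineralocorticoid receptor, which also binds corticosterone, averaged 73.8 ± 12.1 in leptin, 81.3 ± 21.6 in calorie restricted, 76.0 ± 15.9 in ad libitum and 53.7 ± 13.9 in wild type hearts, and calorie restriction over wild type was 0.55 (adjusted p = 0.0635). Hsd11b2, the enzyme that inactivates corticosterone, was below the filter on low signal.

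Metal-handling genes were read beside the metallothioneins, and 8 of 10 were tested. Slc39a14 (ZIP14), a zinc and iron importer, averaged 397 ± 27.5 in leptin, 247 ± 56.6 in calorie restricted, 329 ± 22.7 in ad libitum and 385 ± 29.1 in wild type hearts. It rose by 0.70 in leptin over calorie restriction (limma adjusted p = 6.41e-04) and fell by 0.65 in calorie restriction over wild type (adjusted p = 0.00194). Slc39a10 (ZIP10), a zinc importer, rose by 0.58 in leptin over calorie restriction (adjusted p = 0.00779). In calorie restriction over ad libitum Slc39a14 fell by 0.43 (adjusted p = 0.0424) and Slc39a10 fell by 0.50 (adjusted p = 0.0462), and with 1 array of either group left out each of these 2 calls was kept in 2 of 9 fits. Mtf1, the metal-sensing factor, had no call, and Mt3 and Mt4 were below the filter.

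**Figure D4:**
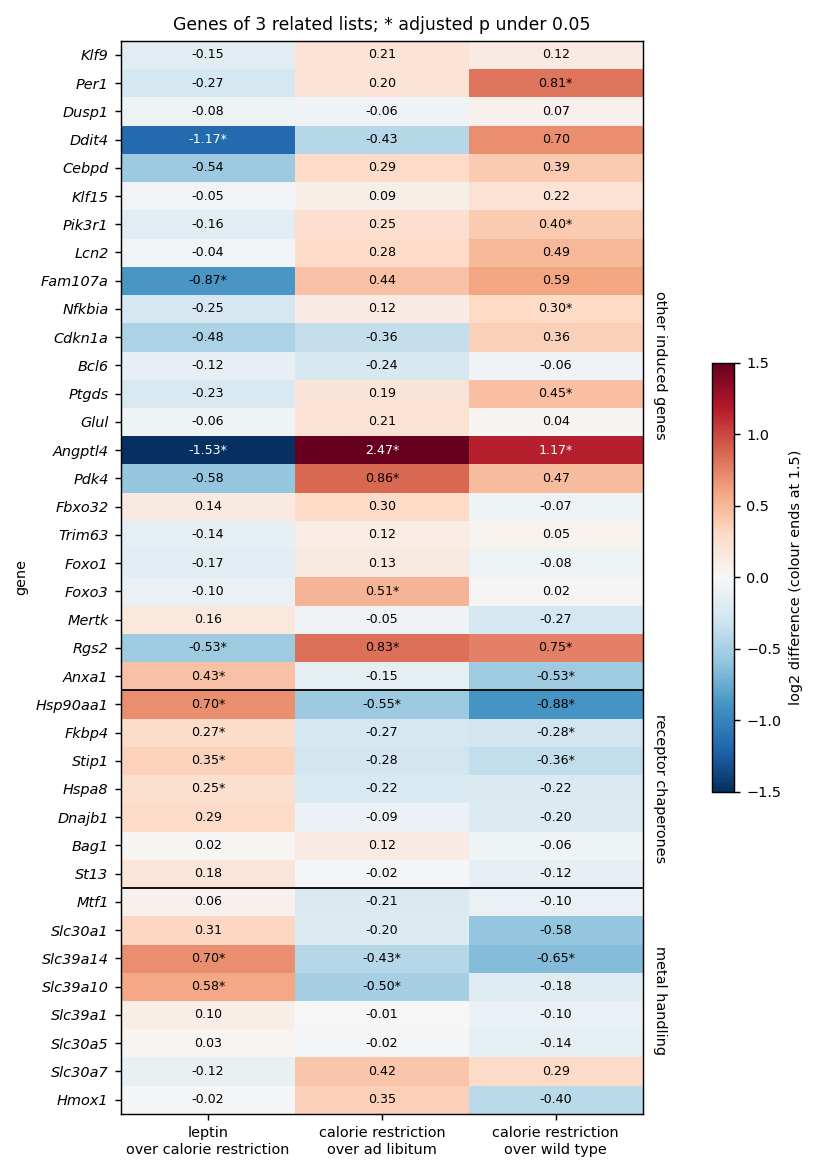
Log2 differences of the tested genes of 3 related lists (down the page) in leptin over calorie restriction, calorie restriction over ad libitum and calorie restriction over wild type. Red is higher and blue lower, the colour ends at 1.5, and an asterisk marks an adjusted p under 0.05; Hsp90aa1, Angptl4, Rgs2 and Slc39a14 have a called value in all 3 columns.

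Calls among markers of other cell types lay in comparisons with the calorie restricted group, apart from Tek in leptin over ad libitum. All 5 macrophage markers rose in leptin over calorie restriction, with a median log2 difference of 0.69, beside 10.4% of all genes called higher. In calorie restriction over wild type 4 of 5 fell, beside 8.2% called lower, and in calorie restriction over ad libitum 3 of 5 fell, beside 4.42%. Their summed signal was 1667 to 2418 in leptin, 1027 to 1398 in calorie restricted, 1529 to 1888 in ad libitum and 1639 to 2725 in wild type hearts. With 1 array of either group left out, the macrophage calls in calorie restriction over ad libitum were often lost. They were kept in 4 of 9 fits for Adgre1, 2 of 9 for Csf1r and 1 of 9 for C1qa. The call for Cd68 in leptin over calorie restriction was kept in 4 of 10. Of the endothelial markers, 2 of 5 rose in leptin over calorie restriction and 1 of 5 fell in calorie restriction over ad libitum. In calorie restriction over wild type 0 of 5 were called. Their summed signal was 1643 to 1903 in leptin, 1166 to 1461 in calorie restricted, 1501 to 2066 in ad libitum and 1305 to 1934 in wild type hearts. The endothelial gene Tek rose by 0.36 in leptin over ad libitum (limma adjusted p = 0.0486), a call kept in 2 of 9 fits with 1 array left out. Of the fibroblast markers, 2 of 5 rose in leptin over calorie restriction, and 2 of 5 fell in calorie restriction over ad libitum and in calorie restriction over wild type. Their summed signal was 3872 to 4962 in leptin, 3552 to 4608 in calorie restricted, 3800 to 4290 in ad libitum and 3602 to 5201 in wild type hearts. Of the smooth muscle and pericyte markers only Pdgfrb was called. It rose by 0.45 in leptin over calorie restriction (limma adjusted p = 0.00194) and fell by 0.40 in calorie restriction over wild type (adjusted p = 0.0075). The red cell marker Alas2 fell by 1.48 in calorie restriction over wild type (adjusted p = 0.0266). That call was kept in 4 of 9 fits with 1 array left out. The 5 ventricular markers had 0 calls by limma in these comparisons. At an unadjusted p under 0.05 limma passed 0 of them in leptin over calorie restriction and 0 in calorie restriction over ad libitum. It passed 4 of 5 in calorie restriction over wild type, beside 28.3% of all genes tested, and all 5 differences there were positive with a median of 0.26. The 4 atrial markers tested had 0 calls in any comparison. In calorie restriction over ad libitum all 4 were positive and passed the unadjusted threshold, beside 2401 of the 10916 genes, with a median of 2.22. Macrophages and endothelial cells also carry the receptor and Tsc22d3, and the part of these cells in the differences of the 10 genes was not tested.

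The genes whose pattern was nearest to each called gene were found from the root mean square difference in centred log2 signal over the 18 arrays. For Sult1a1 the nearest was Eef2k, the kinase of translation elongation factor 2, at 0.234, followed by the fatty acid transporter Slc27a1 at 0.279 and Spock2 at 0.29, against a median of 0.674 over all genes. For Nr3c1 they were the nucleolar methyltransferase Fbl at 0.0866, Vps29 at 0.0868 and Ak3 at 0.0924 (median 0.285). For Fkbp5 they were Mtarc2 at 0.183, Synpo at 0.187 and Pth1r at 0.188 (median 0.433). Tsc22d3 was nearest to the mitochondrial kinase gene Pink1 and to Dhrs11, both at 0.133, and to catalase, Cat, at 0.134 (median 0.339). Errfi1 was nearest to the acyl-CoA binding protein gene Dbi at 0.15, to Coa7 at 0.156 and again to Dhrs11 at 0.162 (median 0.369). Mt1 was nearest to Herpud1, a gene of the endoplasmic reticulum stress response, at 0.141, Tmtc1 at 0.146 and Epc1 at 0.152 (median 0.343).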

How the data were processed

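Gene expression was measured in 18 ventricular samples, each on 1 single-colour Affymetrix array. The deposited values are linear signal intensity per probe set, made by the authors with MAS5, per the submitters' processing notes, and each array had been scaled so that the mean after trimming 2% at each end was 100.001. Settings, detection calls and batches were not given in the sources used here. The number of arrays limits the precision.

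Of 45101 probe sets, 64 were controls, 34945 had 1 gene symbol, 932 had several and 9160 were unlisted in the platform annotation of the deposited series. Of those with 1 symbol, 34741 matched RefSeq (GRCm38.p6) by gene ID. The probe set with the highest mean stood for each of 18193 genes. Values were analysed as log2(signal + 5.13), the constant being the 20th percentile of all signals, so folds of dim genes are understated. Genes under the 40th percentile of gene means were left out, which left 10916. limma 3.58.1 (R 4.3.3) fitted the 4 group means to all 18 arrays with 6 contrasts and Benjamini-Hochberg adjustment over all genes. Tested on simulated data for leptin over calorie restriction (10916 genes), the fit recovered 68% of planted 1.5-fold and 95% of planted 2-fold differences, and 7.39% of its calls were false. The simulated noise was normal and independent between genes, with 100 genes of each size raised in the calorie restricted group. Array effects shared by many genes were not simulated, so these rates may not hold for the real arrays. Correlations and sequence searches used Python 3.11.15, numpy 2.4.6 and pandas 2.3.3.

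Named genes are the 10 genes, list genes with a call (or, for a list without one, genes with the smallest p) and, for each of the 6 called genes, the 3 of most similar pattern. The 10 genes, the lists and the tests were chosen with earlier results of these data known, so no list is independent evidence. Replicates are separate samples per the labels, which do not say how they were randomised or whether any share a litter, so the p-values cover only how far these samples vary, which may be partly technical. Alternatives were quantile normalization, a constant 4 times larger, no filter, every probe set as a feature, only the 2 groups compared, a replicate block, an atrial marker covariate, and leaving out arrays. A filter at the percentile of all probe sets and correlations without leptin replicate 5 were added after seeing the data. Genes of the lists that were not found by symbol were not analysed here.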

Additional observations from a re-analysis of the deposited data

Results flagged for a closer look

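Among the 40 groups of 4 or 5 arrays formed by the 10 genes and 4 groups, 1 held an array that lay far from the rest of its group. For Nr3c1 in calorie restricted hearts, replicate 5 had a signal of 331.6, above the other 4 arrays, which ran from 291 to 302. Its gap to the next array was 0.733 of the group's whole range. Chance alone marks about 1 in 20 such groups. All 5 calorie restricted arrays, this one included, stayed below every leptin and every wild type array, and the calls for Nr3c1 held without it.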

How the results depend on the processing

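Genes called by limma among the 10916 tested ran from 6 to 50 for ad libitum over wild type (41 with all arrays), 48 to 147 for leptin over ad libitum (114), 556 to 846 for calorie restriction over ad libitum (868) and 1 to 9 for leptin over wild type (2) as each array was left out. The first moved by over 1.5 times without ad libitum replicates 2, 3 or 4 or wild type replicates 1, 2 or 4, the second without ad libitum replicates 2 or 3 or leptin replicate 2, the third without ad libitum replicate 3, and the last without leptin replicates 1, 3 or 5 or wild type replicates 1, 2 or 4. With no filter on low signal the counts were 13, 54, 524 and 1 in that order, and with only the 2 groups compared they were 10, 52, 545 and 1. Without calorie restricted replicates 2 and 3, ad libitum over wild type called 27, calorie restriction over ad libitum 438, leptin over calorie restriction 1186 (1952 with all arrays) and calorie restriction over wild type 1016 (1627). The atrial marker covariate gave 405 for calorie restriction over ad libitum, 1287 for leptin over calorie restriction and 1 for leptin over wild type. Every probe set as a feature gave 2465 for calorie restriction over wild type and 4 for leptin over wild type, and quantile normalization and the filter at the percentile of all probe sets each gave 1 for leptin over wild type. Among the 10 genes, leptin over ad libitum called 0 with no filter, with the 2 groups alone and with the replicate block, and 0 to 2 as an array was left out. Calorie restriction over ad libitum called 1 with no filter, with the 2 groups alone or without replicates 2 and 3, 0 with the atrial covariate, and 1 to 3 as an array was left out. Ad libitum over wild type called 1 with the 2 groups alone. The cause of these changes was not tested.

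Deviations from the group mean of same-numbered arrays correlated between -0.2 and 0.444 over 25 pairs, highest for replicate 4 of the ad libitum and wild type groups. Arrays with different numbers were not compared, so these values cannot decide whether replicate numbers pair the arrays. The replicate block changed the count of genes called to 67 for leptin over ad libitum and 1 for leptin over wild type. Of the 5 pairs of genes that correlated, 0 passed by rank, without the 2 farthest arrays or without leptin replicate 5.

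Of 60 values of the 10 genes, 13 changed sign in some setting, none of them called, the largest reaching 0.19. Under quantile normalization Hsd11b1 was -0.040 for leptin over calorie restriction and Mt1 -0.013 for calorie restriction over wild type. Tsc22d3 was 0.011 with the replicate block and 0.022 with the atrial covariate for leptin over wild type. With that covariate Zbtb16 was 0.031 for leptin over ad libitum, Hsd11b1 -0.042 for calorie restriction over ad libitum and Sgk1 -0.064 for leptin over calorie restriction. Without calorie restricted replicates 2 and 3 Hsd11b1 and Sgk1 were -0.019 and -0.093 in those comparisons. As each array was left out, Hsd11b1 ran from -0.023 to 0.11 for leptin over ad libitum, -0.023 to 0.084 for calorie restriction over ad libitum, -0.064 to 0.067 for leptin over calorie restriction and -0.12 to 0.0075 for leptin over wild type. Zbtb16 ran from -0.12 to 0.19, from -0.045 to 0.28 and from -0.30 to 0.040 in the first 3 of these. Sgk1 ran from -0.041 to 0.081 for leptin over calorie restriction and -0.016 to 0.11 for calorie restriction over wild type. For leptin over wild type the ranges were -0.064 to 0.072 for Tsc22d3, -0.10 to 0.027 for Errfi1 and -0.048 to 0.44 for Mt2.

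Of 56 called values in the other lists, 35 held whichever array was left out and 29 under every setting. Signal over background limited some probe sets: 1 of Fkbp5 and 1 of Mt1 lay at or below the added constant on 15 and 7 of the 18 arrays and were not tested.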
